A study of Mus musculus with 12 samples.

Results

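Plasma cell effector genes are described here: 10 genes whose products make up the antibody-secreting state, namely Jchain, Tnfrsf17, Mzb1, Sdc1, Tent5c, Slamf7, Ell2, Creb3l2, Txndc5 and Hid1. They were listed by name, apart from the transcription factors that switch the state on, and were found on the array through the transcript accession of each probe (Jchain was formerly Igj, and Tent5c was Fam46c). Each gene was read by 1 probe, so 10 of 55,681 non-control probes and 10 of 20,018 named genes were involved, and all 10 were among the 22,981 features bright enough to test. The study asked how the chromatin protein PC4, encoded by Sub1, acts in B cells, and measured RNA of mouse splenic B cells on 12 one-colour arrays, 3 in each of 4 groups. Knockout stimulated cells came from B1-8hi mice with floxed Sub1 alleles and Mb1-Cre, after 72 h of differentiation stimuli. Control stimulated cells had the same stimuli and the same B1-8hi and floxed Sub1 alleles, without Cre. Knockout resting and control resting cells were the same genotypes, labelled naive. The treatment text is the same for all 12 samples, and the absence of stimuli in resting cells is taken from their description and treatment labels. The culture medium contained IL-2 at 100 U/mL, IL-4 at 5 ng/mL, IL-5 at 1.5 ng/mL, CD40 ligand at 0.2 ng/mL and NP-ficoll at 0.01 ng/mL. B1-8hi, carried by both genotypes, is an inserted immunoglobulin heavy chain gene specific for the hapten NP. Mb1-Cre is a recombinase inserted into the Cd79a gene and active from early B cell development, so loss of Sub1, presence of Cre and the insertion in Cd79a cannot be told apart. Animal ages are not given in the labels.

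When a B cell becomes a plasmablast or plasma cell, it turns from sensing antigen to secreting antibody. The transcription factors IRF4, BLIMP1 (Prdm1) and XBP1 drive this change, the endoplasmic reticulum expands, and the unfolded protein response widens its capacity to fold and export protein. The genes described here carry out parts of that programme. Some build and fold the antibody itself, some are surface proteins by which plasma cells are recognised and kept alive, some process the very abundant immunoglobulin transcripts, and some serve the secretory route.

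Levels are log2 signal intensities relative to the 75th percentile of their own array, so 0 is the intensity at that percentile. Differences are log2 differences in which 1 is a doubling. A gene was called where limma's p-value, adjusted by Benjamini-Hochberg over all 22,981 features, was under 0.05. The share of spots well above background lay between 24.3% in control stimulated replicate 2 and 76.8% in knockout stimulated replicate 3, and none was saturated. A level of 0 was therefore near the limit of detection on control stimulated replicate 2, where Slamf7 at 0.06 was not well above background. Precision is limited by the number of arrays. Arrays of one group correlated at 0.944 to 0.969 over all features. Separate animals are not stated for the replicates in the labels, so a p-value here covers only the spread among these samples, and that spread may be technical. Both arrays of control replicate 1 stood apart from the other 10 in carrying almost no Xist signal, and results are given without them where that matters. Replicates 1 and 2 of every group lay on slide 1 and replicate 3 on slide 2. Sub1 averaged 6.84 ± 0.11 in knockout stimulated and 8.05 ± 0.22 in control stimulated cells, and 5.65 ± 0.24 in knockout resting and 6.03 ± 0.04 in control resting cells (SD, n = 3 each). It was called lower after stimulation (-1.21, SE 0.19, adjusted p = 0.0114) but not at rest (-0.38, SE 0.19, adjusted p = 0.268), and whether its probe lies in the deleted part is not given. All 9 B cell markers were well above background on at least 1 array of every group, and their summed linear level was 909 to 1120 in knockout stimulated, 860 to 1266 in control stimulated, 1171 to 1344 in knockout resting and 1600 to 1907 in control resting cells.

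The knockout difference in stimulated cells was already known for these data when the genes were chosen. That difference, and the interaction that contains it, are therefore given as a description: their values, and counts past the threshold beside the share of all features, from which nothing is read. Tests are given for the knockout difference at rest and for stimulation within each genotype. The stimulation tests share the stimulated arrays with the known comparison, so they are not independent of the choice of genes. Choosing genes lower on knockout stimulated arrays can favour a rise in control cells and a smaller rise or a fall in knockout cells. In bulk RNA, fewer cells of a type and less RNA per cell cannot be told apart.

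Across the 4 groups, 9 of the 10 genes stood higher in stimulated than in resting control cells with no overlap of the arrays, as 20.3% of all features did. Of these, 8 passed the test, where 14.7% of all features were called higher. In knockout cells 5 of those 8 rose, by 1.08 to 1.62, where 10.9% of all features were called higher. Tnfrsf17, Sdc1 and Txndc5 did not pass the test there, and Jchain fell, where 5.2% of all features were called lower. Slamf7 differed little in any comparison. At rest, the knockout arrays lay above all control arrays for Jchain, Tnfrsf17, Tent5c, Creb3l2 and Hid1, as in 9.93% of all features. None of the 10 genes passed the test there.

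**Figure D1:**
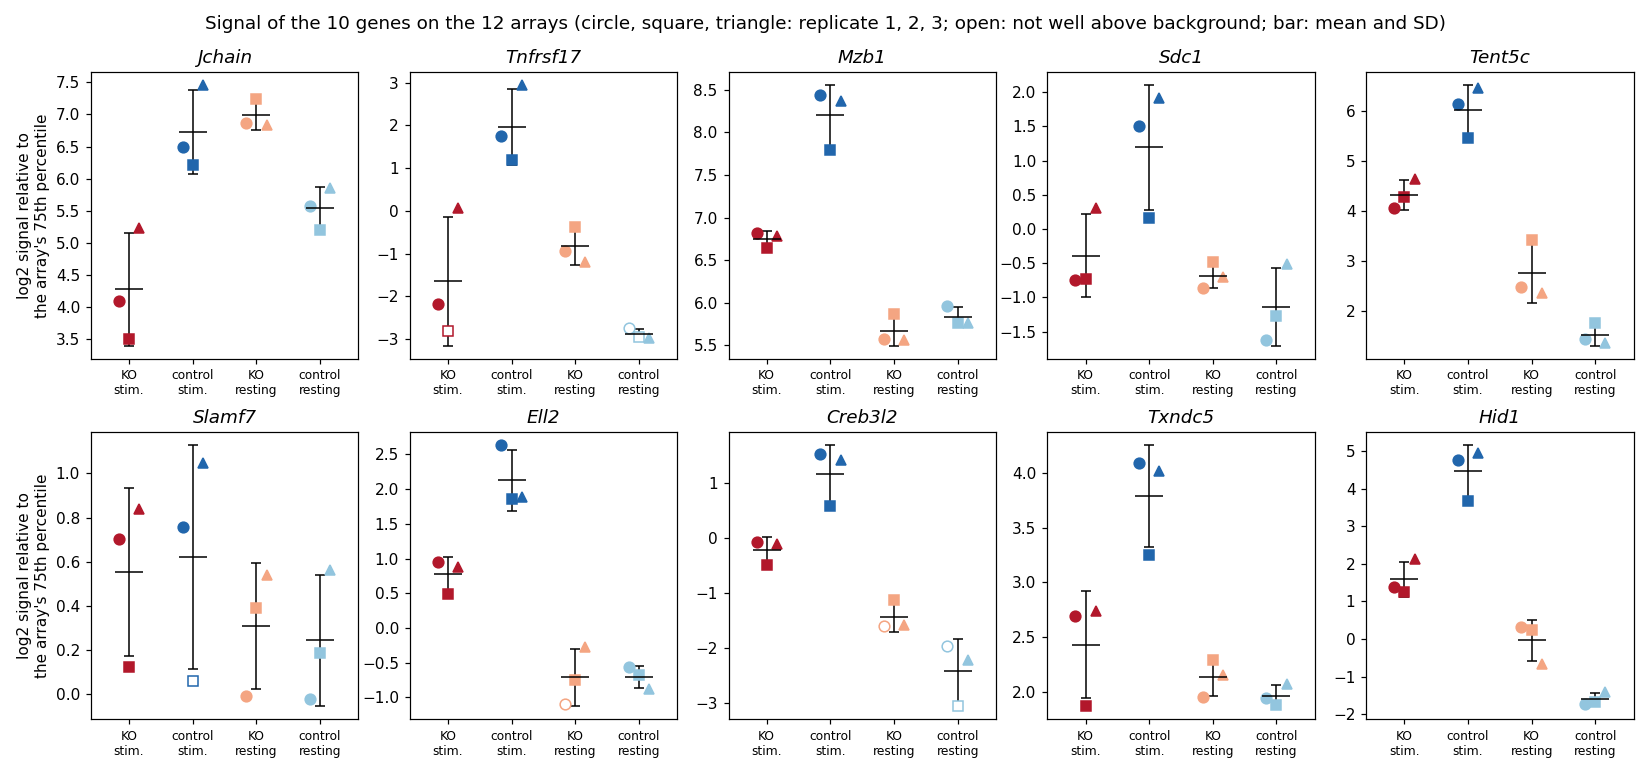
Signal of the 10 genes on the 12 arrays as log2 intensity relative to the 75th percentile of the array, with 1 panel and 1 axis range per gene. Symbols mark replicates 1 to 3, open symbols lie not well above background, and bars give mean and SD. Control stimulated arrays are the highest group for Tnfrsf17, Mzb1, Tent5c, Ell2, Creb3l2, Txndc5 and Hid1, Jchain is lowest in knockout stimulated cells, and the 4 groups of Slamf7 overlap.

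Promoters were compared because these genes are read together in one cell state and 2 arms of it, the unfolded protein response and IRF4, bind known motifs. Of the 10 genes, 8 matched an entry in the RefSeq promoter table (build GRCm38.p6), which gives 250 bases before and 50 bases after a transcription start. Txndc5 has 3 start sites, so 10 promoters were searched on both strands. The 4 shown are the gene that fell on stimulation of knockout cells, Jchain, and the genes that held the rarer motifs. Capitals mark motif matches as named after each sequence, and Jchain had none.
Jchain, chr5:88527848-88528147, minus strand: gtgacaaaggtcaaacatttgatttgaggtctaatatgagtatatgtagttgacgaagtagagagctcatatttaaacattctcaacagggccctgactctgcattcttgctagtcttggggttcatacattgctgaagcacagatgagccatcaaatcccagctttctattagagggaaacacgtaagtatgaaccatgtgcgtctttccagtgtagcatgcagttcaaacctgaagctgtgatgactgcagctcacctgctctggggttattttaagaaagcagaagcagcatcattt
Tnfrsf17, chr16:11313559-11313858, plus strand: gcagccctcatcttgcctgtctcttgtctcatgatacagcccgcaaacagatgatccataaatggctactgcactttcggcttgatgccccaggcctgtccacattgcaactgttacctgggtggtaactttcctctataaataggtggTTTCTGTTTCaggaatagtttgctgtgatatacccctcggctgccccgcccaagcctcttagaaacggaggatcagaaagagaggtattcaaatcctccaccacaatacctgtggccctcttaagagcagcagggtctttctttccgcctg
Ell2, chr13:75707234-75707533, plus strand: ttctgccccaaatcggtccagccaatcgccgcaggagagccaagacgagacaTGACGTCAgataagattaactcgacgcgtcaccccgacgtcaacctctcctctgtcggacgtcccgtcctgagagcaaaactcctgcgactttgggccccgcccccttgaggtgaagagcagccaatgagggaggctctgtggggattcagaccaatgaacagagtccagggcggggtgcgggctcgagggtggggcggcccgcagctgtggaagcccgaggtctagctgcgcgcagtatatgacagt
Txndc5 start site 3, chr13:38527865-38528164, minus strand: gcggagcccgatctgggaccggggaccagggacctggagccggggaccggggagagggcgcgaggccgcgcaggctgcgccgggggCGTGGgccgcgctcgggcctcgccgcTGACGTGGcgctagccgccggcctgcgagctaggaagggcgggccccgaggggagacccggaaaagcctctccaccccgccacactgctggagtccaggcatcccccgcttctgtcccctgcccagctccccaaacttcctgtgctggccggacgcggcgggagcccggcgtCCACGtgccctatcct

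The capitals in Tnfrsf17 are the reverse complement of an interferon-stimulated response element, searched as GAAA followed 2 bases later by GAAA, with its first base at -101 from the start. This motif was in 3.44% of the 32,851 promoters of the table and also in Txndc5 start site 1. In Ell2 the capitals are the cyclic AMP response element TGACGTCA at -198, a motif of 1.79% of all promoters and of no other promoter of these genes. In Txndc5 start site 3 they are the XBP1-binding core TGACGTG at -138, found in 2.01% of all promoters, and copies of CCACG or its reverse complement, a short part of the endoplasmic reticulum stress element. One of those short matches overlaps the TGACGTG match. CCACG was in 32.8% of all promoters and also in Sdc1 and in Txndc5 start site 2. The composite element that IRF4 binds together with PU.1, GGAA followed 2 bases later by GAAA, was in 2.72% of all promoters and in 0 of these 10. G and C made up 42.3% of the bases in Jchain, 61.3% in Ell2 and 75.7% in Txndc5 start site 3, against a median of 52.7% over the table.

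Among the genes that assemble and fold antibody, Jchain encodes the small joining chain that links IgM and IgA units into polymers. Its level was 4.09, 3.51 and 5.23 in replicates 1, 2 and 3 of knockout stimulated cells, against 6.49, 6.22 and 7.46 in control stimulated cells. At rest the order of the genotypes was the opposite, with 6.87, 7.24 and 6.84 in knockout cells and 5.58, 5.20 and 5.85 in control cells. Neither pair of groups overlapped, and knockout resting arrays were about as high as control stimulated arrays, which they overlapped. The knockout difference was -2.45 (SE 0.44, 5.45-fold lower) after stimulation, with -2.55 on slide 1 and -2.23 on slide 2. At rest it was 1.44 (SE 0.44, 2.71-fold higher) and did not pass the test (adjusted p = 0.206). Stimulation lowered Jchain 6.53-fold in knockout cells (-2.71, SE 0.44, adjusted p = 0.00201). In control cells the stimulated arrays all lay above the resting ones, by 1.18 on average (SE 0.44), which missed the threshold (adjusted p = 0.0708) and passed it with the replicate number as a block (adjusted p = 0.0306). It also passed without knockout stimulated replicate 3 (adjusted p = 0.0295). Pigr, the receptor that carries polymeric antibody through epithelia, was 0.04 apart between stimulated knockout and control cells.

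Mzb1 encodes an endoplasmic reticulum cochaperone, abundant in marginal zone B cells, that helps to assemble IgM. It read 6.81, 6.64 and 6.78 in knockout stimulated cells and 8.45, 7.79 and 8.37 in control stimulated cells. Resting levels were 5.58, 5.87 and 5.56 in knockout and 5.96, 5.76 and 5.76 in control cells, where the ranges overlapped. Stimulated knockout arrays were thus intermediate, above every resting array and below every control stimulated array. Mzb1 rose on stimulation by 1.08 (SE 0.21, adjusted p = 0.00553) in knockout cells and by 2.37 (SE 0.21, adjusted p = 2.45e-05) in control cells. Between genotypes Mzb1 differed by -1.46 (SE 0.21, 2.75-fold lower) after stimulation and -0.16 (SE 0.21, adjusted p = 0.600) at rest, where its sign turned under quantile normalization (0.19).

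Txndc5 encodes an endoplasmic reticulum disulphide isomerase with thioredoxin domains. It read 2.69, 1.87 and 2.73 in knockout stimulated cells, against 4.09, 3.25 and 4.02 in control stimulated cells. Knockout resting cells gave 1.95, 2.29 and 2.16, and control resting cells gave 1.95, 1.88 and 2.07. Only the control stimulated arrays stood clear of the other 3 groups. Stimulation raised Txndc5 3.54-fold in control cells (1.82, SE 0.29, adjusted p = 8.43e-04), while the difference in knockout cells was 0.30 (SE 0.29, adjusted p = 0.593). Knockout minus control gave -1.36 (SE 0.29, 2.56-fold lower) after stimulation and 0.17 (SE 0.29, adjusted p = 0.695) at rest. Several but not all of the other disulphide isomerases and thioredoxin-domain proteins had the same order of stimulated groups. Txndc11 was lower in knockout stimulated cells by 1.72 on the log2 scale, with means of 4.08 in knockout and 5.79 in control cells (adjusted p = 0.0168). P4hb and Pdia6, both isomerases, were each lower by 1.24 (adjusted p = 0.0274 and 0.0144), and all 3 rose on stimulation of control cells, by 2.30, 2.28 and 2.39.

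Of the surface proteins, Tnfrsf17 encodes BCMA, a receptor for the cytokines APRIL and BAFF that supports survival of long-lived plasma cells. It read -2.19, -2.81 and 0.06 in knockout stimulated cells, against 1.75, 1.20 and 2.95 in control stimulated cells. At rest it read -0.94, -0.37 and -1.20 in knockout cells and -2.75, -2.95 and -2.96 in control cells. Replicates 1 and 2 of control resting and replicate 2 of knockout stimulated cells were not well above background. Knockout cells were below all control arrays after stimulation and above all of them at rest. The difference after stimulation was -3.61 (SE 0.66, 12.2-fold lower). The difference at rest was 2.05 (SE 0.66, adjusted p = 0.213), 2.20 within slide 1 and 1.76 within slide 2. Stimulation raised Tnfrsf17 by 4.85 in control cells (SE 0.66, adjusted p = 3.26e-04), and by 3.15 with normexp background correction. Control resting cells were well above background on 1 of 3 arrays. In knockout cells the difference was -0.81 (SE 0.66, adjusted p = 0.512), and it depended on 1 array: on slide 1 it was -1.85 and on slide 2 1.26, and without knockout stimulated replicate 3 it was -1.66 (adjusted p = 0.0465). The neighbouring receptors of the same ligands differed less between stimulated knockout and control cells. Tnfrsf13b, which encodes TACI, had a difference of -0.80 (SE 0.24, adjusted p = 0.0943), and Tnfrsf13c, which encodes the BAFF receptor of mature B cells, had 0.21 (SE 0.27).

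Sdc1 encodes syndecan-1, also called CD138, the heparan sulphate proteoglycan by which plasma cells are commonly sorted. Knockout stimulated cells had -0.74, -0.73 and 0.31, and control stimulated cells had 1.50, 0.17 and 1.92. These ranges overlapped, since knockout replicate 3 lay above control replicate 2. Resting levels were -0.86, -0.48 and -0.70 in knockout and -1.62, -1.28 and -0.51 in control cells, again overlapping. Stimulation raised Sdc1 5.03-fold in control cells (2.33, SE 0.47, adjusted p = 0.00357), a call that ended without both arrays of control replicate 1 (1.93, adjusted p = 0.0671). In knockout cells the difference was 0.29 (SE 0.47, adjusted p = 0.780). Between genotypes Sdc1 differed by -1.58 (SE 0.47) after stimulation, -1.57 on slide 1 and -1.61 on slide 2, and 0.45 (SE 0.47, adjusted p = 0.516) at rest. Sdc3 and Sdc4, the other syndecans tested, had 0.83 (SE 0.31) and 0.01 (SE 0.22) in the stimulated knockout comparison.

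Slamf7 encodes a homophilic receptor of the SLAM family found on plasma cells, natural killer (NK) cells and activated myeloid cells. It read 0.70, 0.12 and 0.84 in knockout stimulated cells and 0.76, 0.06 and 1.05 in control stimulated cells. At rest it read -0.01, 0.39 and 0.54 in knockout and -0.02, 0.19 and 0.56 in control cells. All 4 groups overlapped, no test passed, and control stimulated replicate 2 was not well above background. The stimulated knockout difference was -0.07 (SE 0.30) and turned positive under quantile normalization (0.06), and the resting one was 0.06 (SE 0.30, adjusted p = 0.888) and turned negative under median scaling (-0.54). Stimulation gave 0.25 (SE 0.30, adjusted p = 0.700) in knockout and 0.38 (SE 0.30, adjusted p = 0.433) in control cells. Other SLAM genes did differ between stimulated genotypes, in both directions. Slamf9 averaged -0.75 ± 0.13 in knockout and 0.86 ± 0.35 in control cells (-1.61, adjusted p = 0.0114). Slamf1, the family's founding member, was not well above background on any knockout stimulated array and was at least 1.28-fold lower there than in control stimulated cells (adjusted p = 0.0246), where 1 of 3 arrays was well above background. Slamf8, known from macrophages, averaged 0.11 ± 0.54 in knockout and -2.23 ± 0.71 in control cells (2.33, adjusted p = 0.0154). It was well above background on 1 of 3 control stimulated arrays, so the size of its difference is uncertain.

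Transcript processing was represented by Tent5c and Ell2. Tent5c encodes a cytoplasmic poly(A) polymerase that lengthens the tails of immunoglobulin and other secretory transcripts. It read 4.06, 4.28 and 4.65 in knockout stimulated cells and 6.15, 5.48 and 6.46 in control stimulated cells. Knockout resting cells had 2.49, 3.43 and 2.36, against 1.45, 1.77 and 1.36 in control resting cells. The 4 groups did not overlap at any step, and their order was control resting, knockout resting, knockout stimulated, control stimulated. Tent5c rose on stimulation by 1.57 in knockout cells (SE 0.34, adjusted p = 0.00933) and by 4.50, or 22.6-fold, in control cells (SE 0.34, adjusted p = 1.18e-05). The call in knockout cells ended without knockout resting replicate 1 or knockout stimulated replicate 2, at adjusted p values up to 0.0529. Knockout minus control gave -1.70 (SE 0.34, 3.24-fold lower) after stimulation and 1.23 (SE 0.34, adjusted p = 0.186) at rest. Its paralogue Tent5a had 0.02 (SE 0.20) in the stimulated knockout comparison and fell by 1.09 on stimulation of control cells (adjusted p = 0.00231).

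Ell2 encodes a transcription elongation factor that favours the secreted over the membrane form of the immunoglobulin heavy chain transcript. It read 0.95, 0.49 and 0.88 in knockout stimulated cells, against 2.63, 1.85 and 1.89 in control stimulated cells. Resting levels were -1.10 (replicate 1, not well above background), -0.76 and -0.28 in knockout and -0.57, -0.67 and -0.88 in control cells, with overlap. Stimulated knockout arrays lay between the resting and the control stimulated ones without touching either. Ell2 rose by 1.49 in knockout cells (SE 0.28, adjusted p = 0.00458) and by 2.83, or 7.12-fold, in control cells (SE 0.28, adjusted p = 4.34e-05). The knockout difference was -1.35 (SE 0.28, 2.55-fold lower) after stimulation and -0.01 (SE 0.28, adjusted p = 0.988) at rest, a value whose sign turned with normexp background correction (0.08). Ell3, a paralogue, ran the other way on stimulation and fell by 3.29 in control cells (adjusted p = 1.82e-05).

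The secretory route was represented by Creb3l2 and Hid1. Creb3l2 encodes a transcription factor anchored in the endoplasmic reticulum membrane that, once cut free, raises genes of protein transport, so it is itself a transcription factor in spite of the rule by which the genes were listed. It read -0.08, -0.50 and -0.11 in knockout stimulated cells and 1.51, 0.57 and 1.41 in control stimulated cells. At rest it read -1.60, -1.14 and -1.59 in knockout and -1.96, -3.06 and -2.23 in control cells, and 3 of these 6 arrays were not well above background. The groups followed the same order as for Tent5c, without overlap at any step. Creb3l2 rose by 1.21 in knockout cells (SE 0.33, adjusted p = 0.0318), a call that ended when any 1 of the 6 knockout arrays was left out (adjusted p up to 0.125). In control cells it rose by 3.58 (SE 0.33, adjusted p = 3.34e-05), and by 2.20 with normexp background correction. Between genotypes Creb3l2 differed by -1.40 (SE 0.33, 2.63-fold lower) after stimulation and 0.98 (SE 0.33, adjusted p = 0.220) at rest. Creb3, the other tested gene of the family, had -0.44 (SE 0.23) in the stimulated knockout comparison.

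Hid1 encodes a protein of the trans-Golgi network, known in mice and worms for the making of dense core vesicles. Its levels were 1.39, 1.25 and 2.12 in knockout stimulated and 4.75, 3.66 and 4.95 in control stimulated cells. At rest they were 0.31, 0.24 and -0.66 in knockout and -1.73, -1.67 and -1.41 in control cells. Again no groups overlapped at any step of the same order. Hid1 rose 66.7-fold on stimulation of control cells (6.06, SE 0.39, adjusted p = 6.39e-06), the eighth highest difference of all features tested. In knockout cells it rose 3.08-fold (1.62, SE 0.39, adjusted p = 0.0162), by 1.05 on slide 1 and 2.78 on slide 2. That call ended without knockout resting replicate 3, knockout stimulated replicate 2 or knockout stimulated replicate 3, at adjusted p values up to 0.0622. The knockout difference was -2.87 (SE 0.39, 7.30-fold lower) after stimulation. At rest it was 1.57 (SE 0.39, adjusted p = 0.174), 1.98 within slide 1 and 0.75 within slide 2.

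Set side by side, the knockout differences at rest and after stimulation had opposite signs in several genes. At rest limma called 0 of the 10 genes, against 0.0131% of all features. Before adjustment, 5 of the 10 and 4534 of the 22,981 features had a p under 0.05. The 5 genes, Jchain, Tnfrsf17, Tent5c, Creb3l2 and Hid1, had differences of 0.98 to 2.05. The lowest values over the settings were 0.83 for Jchain, 0.63 for Tent5c, 0.37 for Creb3l2 and 0.96 for Hid1, with median scaling, and 0.92 for Tnfrsf17, with normexp. Their knockout arrays all lay above the control arrays, as in 9.93% of all features, and none of the 10 lay wholly below, as in 26.7% of all features. The median of the 10 was 0.72, beside -0.21 over all features. In stimulated cells the count was 8 genes lower and 0 higher, where 2.26% of all features were called lower and 1.21% higher. The arrays of those 8 genes did not overlap, as in 14% of all features. The 2 not counted were Sdc1, which was called lower with the replicate number as a block (adjusted over all features), and Slamf7. The median of the 10 was -1.52, beside -0.02 over all features. The choice of genes used this comparison, so nothing is read from that count. It was 0 in a fit on the stimulated groups alone, without knockout stimulated replicate 2, or without both arrays of control replicate 1. With each array left out in turn, 48 to 1457 of all features were called in this comparison.

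**Figure D2:**
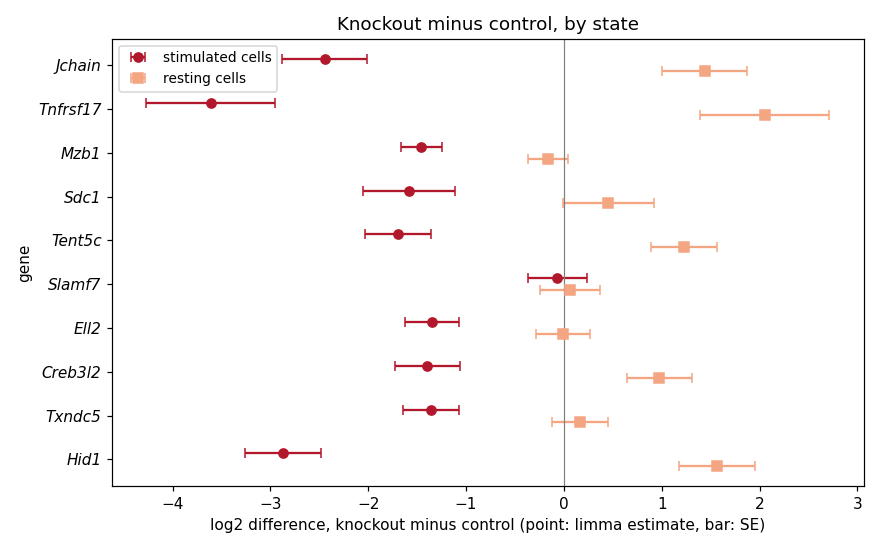
Knockout minus control difference of the 10 genes in log2 units, in stimulated (circles) and resting cells (squares), as limma estimates with their SE, n = 3 arrays per group. Jchain, Tnfrsf17, Tent5c, Creb3l2 and Hid1 lie below 0 after stimulation and above 0 at rest, and Slamf7 lies near 0 in both, where its sign depended on the scaling.

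Stimulation of knockout cells raised 5 of the 10 genes, Mzb1, Tent5c, Ell2, Creb3l2 and Hid1, by 1.08 to 1.62, and lowered 1, Jchain. Of all features, 10.9% were called higher and 5.2% lower in that comparison. Stimulation of control cells raised 8 genes, all but Jchain and Slamf7, by 1.82 to 6.06, where 14.7% of all features were called higher. None of the 10 was called lower, against 13.1% of all features. The median difference of the 10 was 0.69 in knockout and 2.60 in control cells, beside 0.10 and 0.04 over all features. Mzb1, Tent5c, Ell2, Creb3l2 and Hid1 thus passed in both genotypes, and Tnfrsf17, Sdc1 and Txndc5 in control cells alone. That split is not independent of the choice of genes, which was made with the stimulated comparison known. The difference between the responses is the interaction, which uses the known stimulated comparison and is given as a description. Its estimate was negative for all 10 genes, from -0.13 in Slamf7, whose sign turned without both arrays of control replicate 1 (0.07), to -5.66 in Tnfrsf17, which had -3.37 with normexp. Jchain and Hid1 were past the threshold in it, both lower, where 0.144% of all features were called and 0.0914% were called lower, and nothing is read from that count.

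**Figure D3:**
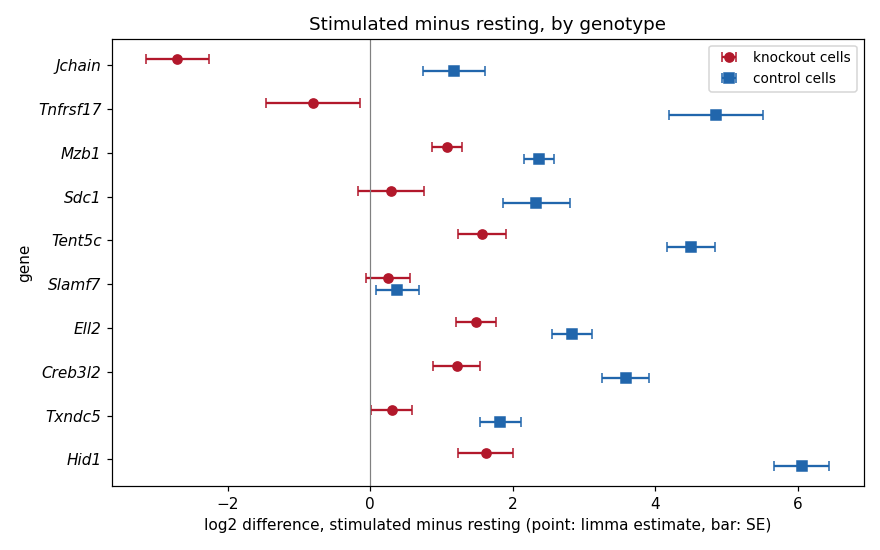
Stimulated minus resting difference of the 10 genes in log2 units, in knockout (circles) and control cells (squares), as limma estimates with their SE, n = 3 arrays per group. Control cells range from 0.38 in Slamf7 to 6.06 in Hid1, and knockout cells from -2.71 in Jchain to 1.62 in Hid1.

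The genes varied in how closely they followed one another. With each gene centred on its own mean over the 12 arrays, Sdc1 lay nearest to the mean profile of the 10, at a root mean square distance of 0.37 log2 units. Mzb1 (0.41), Txndc5 (0.44), Creb3l2 (0.45) and Ell2 (0.52) were close to it. Tent5c (0.73), Tnfrsf17 (0.94), Slamf7 (0.98), Hid1 (1.19) and Jchain (1.30) were farther away. The 12 arrays of Slamf7 lay close together, those of Hid1 spanned the widest range of the 10 genes, and Jchain was high on the resting knockout arrays. Among all other named genes, the nearest to the mean profile were Rexo2 (0.288), Txndc11 (0.311), Ckap4 (0.325), Insig1 (0.343), Cyp4f16 (0.369) and Cpeb3 (0.372). Nearest to Jchain were Ctse (0.584), Slamf9 (0.600) and Lsr (0.674), and nearest to Tnfrsf17 were Pon3 (1.02), Rgcc (1.04) and Cpeb3 (1.06), all over 12 arrays.

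The relatives and partners of the 10 genes gave a background of similar proteins. Of 38 listed, 31 were tested. In stimulated cells 1 was called higher and 7 lower in the knockout, beside 1.21% and 2.26% of all features, with a median of -0.34. With each array left out in turn, 0 to 11 were called in that comparison, beside 48 to 1457 of all features. At rest limma called 0 of them, with 9 at an unadjusted p under 0.05, 4 higher and 5 lower, where 4534 of the 22,981 features had such a p. Stimulation raised 6 and lowered 4 in knockout cells, beside 10.9% and 5.2% of all features. In control cells it raised 9 and lowered 7, beside 14.7% and 13.1%. The medians were 0.00 and -0.18. On stimulation the family members that passed were thus found in both directions. Between stimulated genotypes 7 of the 8 called were lower in the knockout, where 519 of all features were called lower and 277 higher. Nothing is read from that count.

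In 3 other lists the genes called in stimulated cells were lower in the knockout. A positive difference was found in 5 of 17 further antibody-secreting cell genes, 1 of 20 secretory genes and 6 of 10 regulators. The list of regulators was not divided into genes that promote and genes that oppose the plasma cell state. Its sign count and median therefore give no direction for the programme. Of the 17 antibody-secreting cell genes tested from 20 listed, 0 were called higher and 6 lower in stimulated knockout cells (median -0.57). Derl3, which helps to export misfolded protein from the endoplasmic reticulum, averaged 4.10 in knockout and 5.63 in control cells (-1.53, adjusted p = 0.0289), and Sec11c, a signal peptidase subunit, had -1.17 (adjusted p = 0.0203). Of 20 secretory pathway and unfolded protein response genes, 11 were called lower and 0 higher, with a median of -1.25, led by Sec24d, a coat protein of transport vesicles (-1.96, adjusted p = 0.0325), and Creld2 (-1.68, adjusted p = 0.0156). In control cells stimulation raised 14 of those 20 and lowered 0, beside 14.7% and 13.1% of all features. In knockout cells it raised 8 and lowered 1, beside 10.9% and 5.2%. Of 10 regulators of plasma cells, Irf4 (-1.44, adjusted p = 0.0114), Prdm1 (-1.42, adjusted p = 0.0197), Pou2af1 (-1.13, adjusted p = 0.0116) and Xbp1 (-0.93, adjusted p = 0.0499) were called lower in stimulated knockout cells and 0 higher, with a median of 0.26 over the 10. With each array left out in turn, 0 to 8, 0 to 14 and 0 to 6 genes of the 3 lists, in the order given, were called between stimulated genotypes. In those fits 48 to 1457 of all features were called. At rest limma called 0 genes of these 3 lists, beside 0.0131% of all features. At an unadjusted p under 0.05 they had 5 higher, 1 higher and 3 lower, in the order given, where 4534 of the 22,981 features had such a p. The lists were chosen with earlier results of these data known, so their calls and adjusted p values are a description. Each count for stimulated knockout against control cells stands beside 2.26% of all features called lower and 1.21% called higher.

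Summed levels of NK cell markers after stimulation, and of myeloid markers in both states, were higher in knockout than in control cells without overlap. The B cell marker sums given above were lower in knockout cells at rest, without overlap, and overlapped after stimulation. Those of T cell, plasmacytoid dendritic cell and erythroid markers overlapped. The summed linear level of 7 tested NK cell markers of 9 listed was 219 to 426 in knockout stimulated and 35.2 to 37.2 in control stimulated cells, and 7.59 to 11.02 in knockout resting and 5.56 to 9.04 in control resting cells. Klre1 was not well above background on any control array and Klrd1 on none of the control stimulated arrays. Gzmb (3.14, adjusted p = 0.00554), a granzyme, was among 4 markers called higher in stimulated knockout cells. Most of the NK sum after stimulation came from the granzymes Gzma and Gzmb. Their log2 means were 7.60 and 5.92 in knockout and 4.50 and 2.78 in control cells. Every other tested NK marker averaged 3.71 or less in both stimulated groups. The sum of 10 tested myeloid markers of 12 was 28.7 to 36.8 in knockout stimulated, 10.73 to 26.5 in control stimulated, 86.2 to 140.3 in knockout resting and 44.9 to 76.9 in control resting cells, with C1qc (4.01, adjusted p = 0.00261) among 4 called higher in stimulated knockout cells. The NK and myeloid counts stand beside 1.21% of all features called higher in that comparison. The T cell, plasmacytoid dendritic cell and erythroid lists each had 1 gene called there, also higher. On no control stimulated array were C1qa, Cd14 and S100a8 well above background, and Cd68 had no named probe. Erythroid markers, 4 tested of 6, summed to 3.35 to 12.3, 2.45 to 6.69, 70.7 to 307.5 and 8.13 to 94.9 in the same order of groups, with Hba-a1 and Alas2 not well above background on any control stimulated array. T cell markers, 8 of 8 tested, summed to 6.73 to 12.9, 4.32 to 9.88, 7.83 to 13.8 and 5.62 to 8.68, and plasmacytoid dendritic cell markers, 6 of 7, to 92.5 to 197.4, 84.3 to 295.6, 266 to 487 and 290.5 to 533, with Klk1 not well above background on any array outside knockout resting cells. Whether such cells were present, and their part in the differences of Jchain, Slamf7 and the other genes, was not tested.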

How the data were processed

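Amplified RNA of 12 samples carried Cy3 on Agilent mouse arrays, per the labels' protocols. The deposited values are background-subtracted signal intensities on a linear scale, made by the authors with Feature Extraction 10.7.3.1 per the file headers, whereas the submitters' processing notes name Agilent Feature Extraction 9.1. The same values in the series matrix differ by at most 0.497%. Slides came from the array identifiers. Each array held 62,976 spots, 3671 of them controls.

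Outlier spots (2763) were set to missing, log2 intensities were taken relative to the 75th percentile of each array's non-control spots, and repeated spots were averaged. A probe entered the fit if, in 1 or more groups, it was well above background on each of the 3 arrays. Accessions were named through RefSeq genes, a gene was represented by its brightest probe, and probes without a name stayed in (12,295 named and 10,686 unnamed features). The arrays' annotation and RefSeq use different builds, so no gene coordinates are given. Promoters are from RefSeq, build GRCm38.p6, in which 8 of the 10 genes had an entry.

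Differences were fitted with limma 3.58.1 in R 4.3.3 (with the data.table package, version 1.17.8) on all 12 arrays with 4 group means, 8 residual and 2.55 prior degrees of freedom, in 5 contrasts. Every adjusted p is limma's, by Benjamini-Hochberg over 22,981 features. "At least" folds take the lowest signal well above background on each array for the dimmer group. The pipeline was tested on simulated data. The genes, the lists and their tests were chosen with earlier results of these data known. The text names all 10 genes, Sub1, up to 3 relatives per gene, and from each other list up to 4 genes with the largest called difference, as well as the 6 genes nearest to the mean profile and the 3 nearest to Jchain and to Tnfrsf17. One listed marker gene is not reported here.

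Whether samples of one number belong together is not in the labels. Arrays sharing a number deviated together from their group means, with correlations of 0.352, 0.329 and 0.482 between stimulated knockout and control cells and of 0.418, 0.428 and 0.506 between stimulated and resting control cells, so the replicate number was also used as a block, in 1 fit over all 12 arrays. At rest (-0.115, 0.204 and 0.393) and for stimulation of knockout cells (0.0029, 0.149 and 0.390) the number was not taken as a pairing, though the block fit covered these contrasts too.

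Alternatives were the replicate number as a block, the slide as a block, fitting 2 groups only, quantile normalization, median scaling, a percentile over spots detected on all arrays, normexp (offset 50), the series matrix's values, dropping the filter, requiring detection on 12 of 12 arrays, a second probe, eBayes with trend and robust settings, each array left out, control replicate 1 left out, and slide 1 only.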

Additional observations from a re-analysis of the deposited data

Results flagged for a closer look

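For 3 genes the interaction term of limma, the difference between genotypes in the response to stimulation, was past the threshold over all features. For Jchain and Hid1 the term is a description, because the knockout difference in stimulated cells, which is part of it, was known when they were chosen. Jchain had an interaction of -3.89, its difference on stimulation being -2.71 in knockout and 1.18 in control cells. Hid1 had -4.44, with 1.62 in knockout and 6.06 in control cells. Slamf9, a SLAM family relative of Slamf7, had -2.28 (adjusted p = 0.0450), with -2.01 in knockout and 0.26 in control cells. It was not called with the replicate number as a block (adjusted p = 0.0537). With each array left out in turn, 0 to 1 of the listed relatives were called in the interaction, beside 0 to 125 of all features. With all arrays in, 33 of 22,981 features were called. Leaving out 1 array moved the interaction of Jchain between -4.36 and -3.50, and that of Hid1 between -4.83 and -4.19. In most of these fits neither gene was past the threshold.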

How the results depend on the processing

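The count of the 10 genes called at rest was 0 in every setting, and for stimulation of control cells it was 6 to 9, with 6 of 6 genes tested under the filter on all 12 arrays. In stimulated knockout against control cells the count of 8 became 0 in a fit on 2 groups only, 4 with quantile normalization, 1 without the filter, 0 without both arrays of control replicate 1 and 0 on slide 1 only, and 0 to 9 when each array was left out. For stimulation of knockout cells the count of 6 became 2 without the filter, 3 on slide 1 only and 3 to 6 when each array was left out, and the calls of Mzb1 and Creb3l2 there ended with median scaling (adjusted p = 0.118 and 0.140). For the interaction the count of 2 became 4 with the slide as a block, 6 with the percentile over detected spots, 4 with normexp, 0 without the filter, 5 with the filter on all 12 arrays, 7 with trend and robust settings, 0 without both arrays of control replicate 1, 0 on slide 1 only and 0 to 6 when each array was left out. The calls over all features moved as well when each array was left out. They ranged from 48 to 1457 between stimulated genotypes, 1817 to 4135 for stimulation of knockout cells and 0 to 125 for the interaction. The cause of these changes was not tested. With the replicate number as a block the counts were 0, 9, 9, 6 and 2 in the order of the 5 contrasts (knockout at rest, knockout after stimulation, stimulation of control cells, stimulation of knockout cells, interaction), and the block changed no call other than those of Sdc1 and Jchain given above. At rest the sign turned for Mzb1 with quantile normalization (0.19) and the percentile over detected spots (0.19), for Sdc1 (-0.15) and Txndc5 (-0.44) with median scaling, for Slamf7 with median scaling (-0.54) and without control replicate 1 (-0.068), and for Ell2 with the percentile over detected spots (0.35), normexp (0.080) and without control replicate 1 (0.06). Leaving out each array gave -0.068 to 0.23 for Slamf7 and -0.22 to 0.19 for Ell2. After stimulation the knockout difference of Slamf7 turned with quantile normalization (0.060), the percentile over detected spots (0.34), without control replicate 1 (0.000123) and on slide 1 only (0.0035), with -0.35 to 0.15 over the arrays left out. With the percentile over detected spots stimulation gave -0.0065 for Slamf7 in control cells and -0.0427, -0.088 and -0.034 for Sdc1, Slamf7 and Txndc5 in knockout cells. Sdc1 in knockout cells had -0.066 on slide 1 only and -0.058 to 0.47 over the arrays left out. The interaction of Slamf7 was 0.07 without control replicate 1 and -0.41 to 0.085 over the arrays left out. Scaling moved the median of all features at rest from -0.21 to -0.81 with median scaling and 0.14 with the percentile over detected spots, and after stimulation from -0.02 to -0.58 and 0.39. Where signals were near background (Tnfrsf17 and Creb3l2 in control resting cells) normexp gave smaller differences on stimulation of control cells, 3.15 for Tnfrsf17 (4.85 without it) and 2.20 for Creb3l2 (3.58 without it), and an interaction of -3.37 for Tnfrsf17 (-5.66 without it).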
